A study of Homo sapiens with 12 samples.

Results

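The set described here holds the transcript clusters whose polysomal RNA was at least 1 log2 unit higher with interferon-gamma (IFNg) than with DMSO while their total RNA stayed within 0.5 log2 units of the DMSO level. A transcript cluster is a group of array probes that the array maker assigns to 1 transcribed locus. Of 65535 clusters in the table, 11092 reached a mean log2 intensity of 6 across the 12 arrays and are called bright below. Of these, 452 had a polysomal difference of at least 1, and in 440 both polysomal IFNg arrays also lay above both polysomal DMSO arrays, as they did in 13.0% of all bright clusters. The total RNA difference was above 0.5 in 272 of the 440 and below -0.5 in 20, which left 148 members, 1.33% of the bright clusters. The 4 groups of IFNg and DMSO arrays therefore chose the members, and every IFNg against DMSO value below is a description of that choice with no test.

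The cells were A375, a human melanoma line in long use, and each group had 2 arrays. One pair of groups, polysomal and total, came from cells given IFNg for 24 h and silvestrol for 2 h. Another pair came from cells given IFNg alone for 24 h, and the last pair from cells given DMSO for 2 h. No group had silvestrol without IFNg, what vehicle IFNg came in is not labelled, and IFNg and DMSO cells also differed in hours of treatment, so these cannot be told apart from the effect of IFNg. The labels do not say whether replicates were separate cultures, so p-values measure only the spread between these samples, which may be technical.

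IFNg is a cytokine that binds its receptor, activates the JAK1 and JAK2 kinases, and turns on genes of antigen presentation and antiviral defence. An mRNA that several ribosomes read at once sediments as a polysome, so polysomal RNA reports what is loaded with ribosomes and total RNA reports what is present. Silvestrol is a plant compound that blocks eIF4A, the RNA helicase that opens the start of an mRNA for ribosome loading. In bulk RNA, fewer cells with a transcript and less of it per cell cannot be told apart.

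Replicate arrays correlated with r between 0.973 and 0.981 over all clusters. The polysomal IFNg arrays stood apart as the dimmest, with a mean intensity of 1237 and 1347 against 1469 to 1720 on the other 10 arrays, and their bright clusters had a median log2 intensity of 8.05 and 8.08 against 8.34 to 8.65. The members had medians of 9.47 and 9.61 on these arrays, against 8.20 to 9.14 on the other 10. The rule chose members high on these arrays, so this restates the choice. Of the melanocyte markers in the table, MITF, S100A1 and PAX3 were bright (mean log2 13.15, 11.20 and 7.01) and MLANA, TYRP1 and KIT were not (5.89, 5.35 and 3.39). Markers of other cells were dim, at most 4.17 for T cells and 5.79 for endothelial cells, except COL1A2 of fibroblasts at 6.53 and FCGR2A of macrophages at 10.99. No marker was a member.

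**Figure D1:**
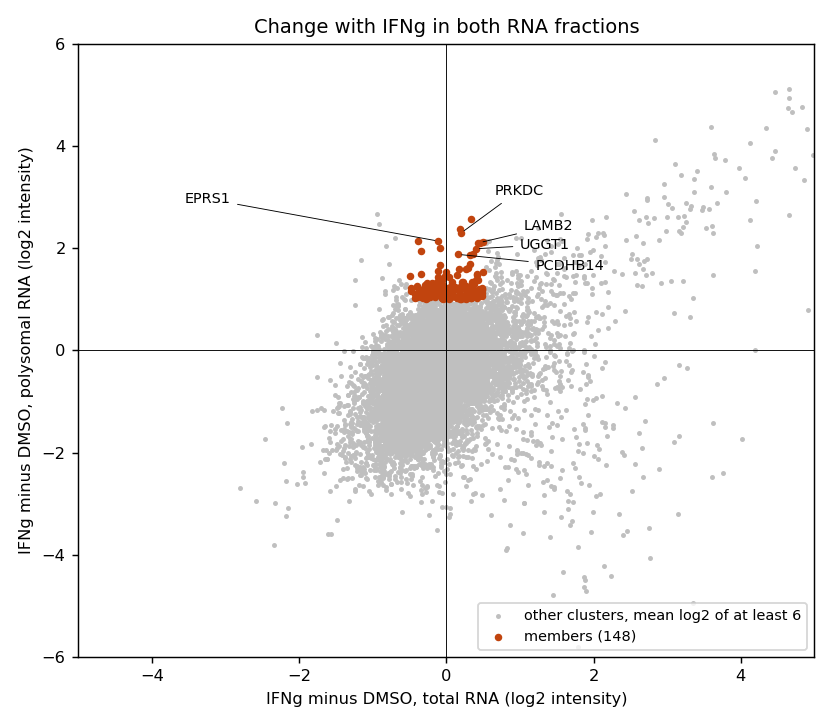
Each point is a bright transcript cluster, placed by its IFNg minus DMSO difference in total RNA (horizontal, log2 intensity) and in polysomal RNA (vertical, log2 intensity), both as differences between means of 2 arrays. The 148 members fill the band above 1 and between -0.5 and 0.5 that the rule cut out, PRKDC is the highest named member at 2.30, and 30 bright clusters lie outside the plotted range.

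The table of the array's annotation gave 83 members a single gene symbol, gave 2 members several symbols and gave 63 none, and 82 of the 83 matched a RefSeq gene (GRCh38.p14). A share of 42.6% of members had no symbol, against 41.0% of bright clusters. Of the matched members 70 were protein-coding genes, 85.4% against 75% of the matched bright clusters, 4 were microRNAs, 6 were pseudogenes and 2 were long noncoding RNAs. By the chromosome digits of the identifiers, 33 members (22.3%) lay on chromosome 2, which held 15.1% of bright clusters. The table ends within chromosome 9, and later chromosomes were not analysed here.

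The protein-coding members tended to be longer genes than bright coding clusters, and the rule did not use length itself. Their median genomic length in RefSeq was 101 kb, against 39.3 kb for the 4669 bright coding clusters, and 35 of 70 exceeded 100 kb, against 1103 of 4669 (23.6%). Among bright coding clusters, members made up 0.889% of genes up to 10 kb, 0.516% from 10 to 30 kb, 1.36% from 30 to 100 kb, 3.08% from 100 to 300 kb and 3.54% above 300 kb. The median polysomal difference with IFNg over all bright coding clusters also moved with length, from -0.95 in the shortest class to -0.26 in the longest. In total RNA it was -0.15 and -0.17 in the same classes. The rule cut on the polysomal difference, so the share of members by length is not independent of it. Brightness was not matched between the length classes.

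**Figure D2:**
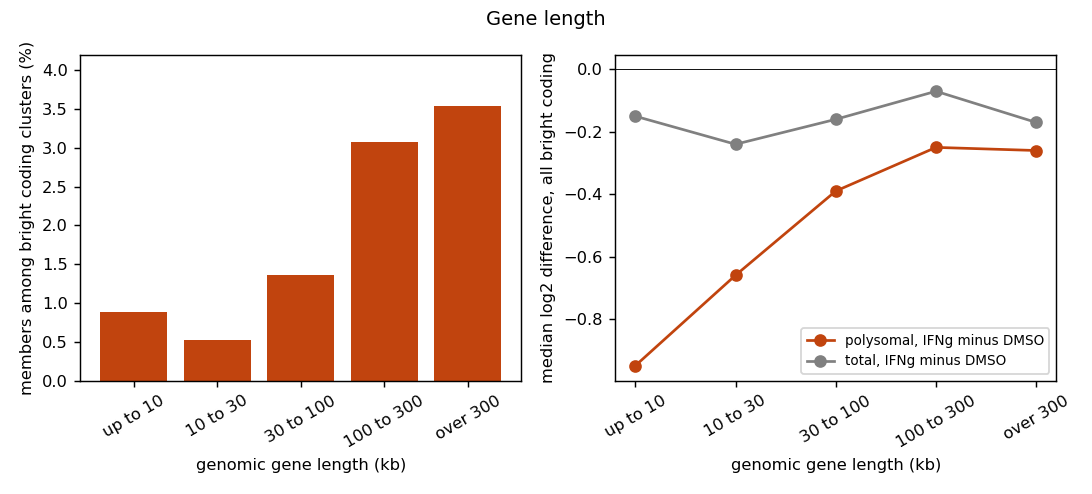
Bright protein-coding clusters are split by genomic gene length in kb. Bars on the left give the percentage that are members, 0.889% in the shortest class and 3.54% in the longest, and lines on the right give the median IFNg minus DMSO difference of all bright coding clusters in polysomal and total RNA (log2 intensity).

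The DNA-dependent protein kinase PRKDC, which joins broken DNA ends, had the largest polysomal difference among members with a symbol. Its polysomal log2 intensity was 13.53 and 13.60 with IFNg and silvestrol, 14.05 and 13.89 with IFNg and 11.65 and 11.68 with DMSO. In total RNA it was 15.45 and 15.00 with IFNg and silvestrol, 15.53 and 15.75 with IFNg, and 15.32 and 15.56 with DMSO. All 4 polysomal arrays with IFNg thus lay more than 1 log2 unit above both DMSO arrays, while the total RNA arrays overlapped. The IFNg minus DMSO difference was 2.30 ± 0.25 (SE) in polysomal RNA, or 4.92-fold, and 0.20 ± 0.25 in total RNA. PRKDC was the only member for which limma called the polysomal and total differences unlike, in the contrast that chose it, beside 0.0361% of bright clusters.

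Another 13 coding members act in the nucleus, a grouping made from known roles after the values were seen. RIF1, which guards broken ends and replication timing, JAZF1, a transcription cofactor, and TRRAP, a scaffold of histone acetyltransferase complexes, were among them, as were ATAD2, SMARCA5 and HLTF of chromatin and MSH6 of mismatch repair. The polysomal IFNg minus DMSO differences of the 14 ran from 1.04 to 2.30, with a median of 1.17. Roles were not counted over all bright coding clusters, here or for the groups below, so the groups show no excess of a role. JAZF1 had polysomal values of 7.83 and 8.18 with IFNg and silvestrol, 7.61 and 9.55 with IFNg, and 6.44 and 6.84 with DMSO. RIF1 had 10.76 and 10.62 with IFNg and silvestrol, 10.55 and 10.77 with IFNg, and 9.68 and 8.47 with DMSO. In both genes the polysomal groups with IFNg stood above the DMSO arrays, but replicate gaps above 1 log2 unit in the IFNg arrays of JAZF1 and the DMSO arrays of RIF1 leave the size uncertain. In total RNA RIF1 was 12.08 on 1 IFNg and silvestrol array and 9.73 on the other, so its total RNA level was not settled.

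Ubiquitin genes formed a further group of 6, with polysomal differences from 1.16 to 1.89. UBR2 and UBR4 recognise the ends of proteins marked for destruction, BIRC6 restrains cell death and attaches ubiquitin, UBA6 activates ubiquitin, RNF220 is a ligase and USP24 removes ubiquitin. UBR2 had polysomal values of 9.99 and 10.33 with IFNg and silvestrol, 10.67 and 11.39 with IFNg, and a mean of 9.13 ± 1.23 (SD, n = 2) with DMSO. The second DMSO array of UBR2 was at 8.27, and the first lay between both silvestrol arrays, so these groups overlapped. BIRC6 had 9.88 and 10.37 with IFNg and silvestrol, 9.79 and 10.15 with IFNg, and 8.62 and 8.82 with DMSO, with no overlap between either IFNg group and DMSO. Its total RNA lay between 10.74 and 11.30 on all 6 arrays.

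Another group of 15 members serves the secretory pathway and lysosome. IGF2R, which carries enzymes to lysosomes, had polysomal values of 12.36 and 11.98 with IFNg and silvestrol, 12.82 and 12.53 with IFNg, and 10.38 and 10.76 with DMSO. UGGT1, the sensor of misfolded glycoproteins in the endoplasmic reticulum, had 14.25 and 14.77 with IFNg and silvestrol, 14.79 and 15.27 with IFNg, and 12.94 and 13.13 with DMSO. In both, the polysomal DMSO arrays were the lowest of all 12 arrays. The IFNg minus DMSO difference was 2.10 ± 0.35 for IGF2R and 1.99 ± 0.29 for UGGT1 (SE), 4.30-fold and 3.98-fold, and the 15 genes ran from 1.04 to 2.10. They included MIA3 and COPA of vesicle transport, MAN2A1 and ALG6 of glycan assembly, and WLS, which escorts Wnt proteins to the cell surface.

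Matrix and cell surface proteins made up 15 more members. LAMB2, a laminin chain of basement membranes, had polysomal values of 7.79 and 7.73 with IFNg and silvestrol, 7.61 and 7.88 with IFNg, and 5.51 and 5.76 with DMSO. Its total RNA was 6.77 and 6.48 with IFNg and silvestrol, 6.91 and 6.64 with IFNg, and 6.02 and 6.64 with DMSO. The 4 polysomal arrays with IFNg were the highest of the 12, and the polysomal IFNg minus DMSO difference was 2.11 ± 0.28 (SE), 4.32-fold. ITGAV, the integrin alpha chain that binds vitronectin and fibronectin, behaved otherwise under silvestrol. It had 12.42 and 12.82 with IFNg and silvestrol, 13.82 and 14.49 with IFNg, and 12.29 and 12.63 with DMSO, so that the silvestrol and DMSO arrays overlapped. LAMB1, ITGA6, HMCN1, CD109, RECK, SEMA3A, TPBG and HSPG2 were further members, with polysomal differences from 1.02 to 1.56.

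**Figure D3:**
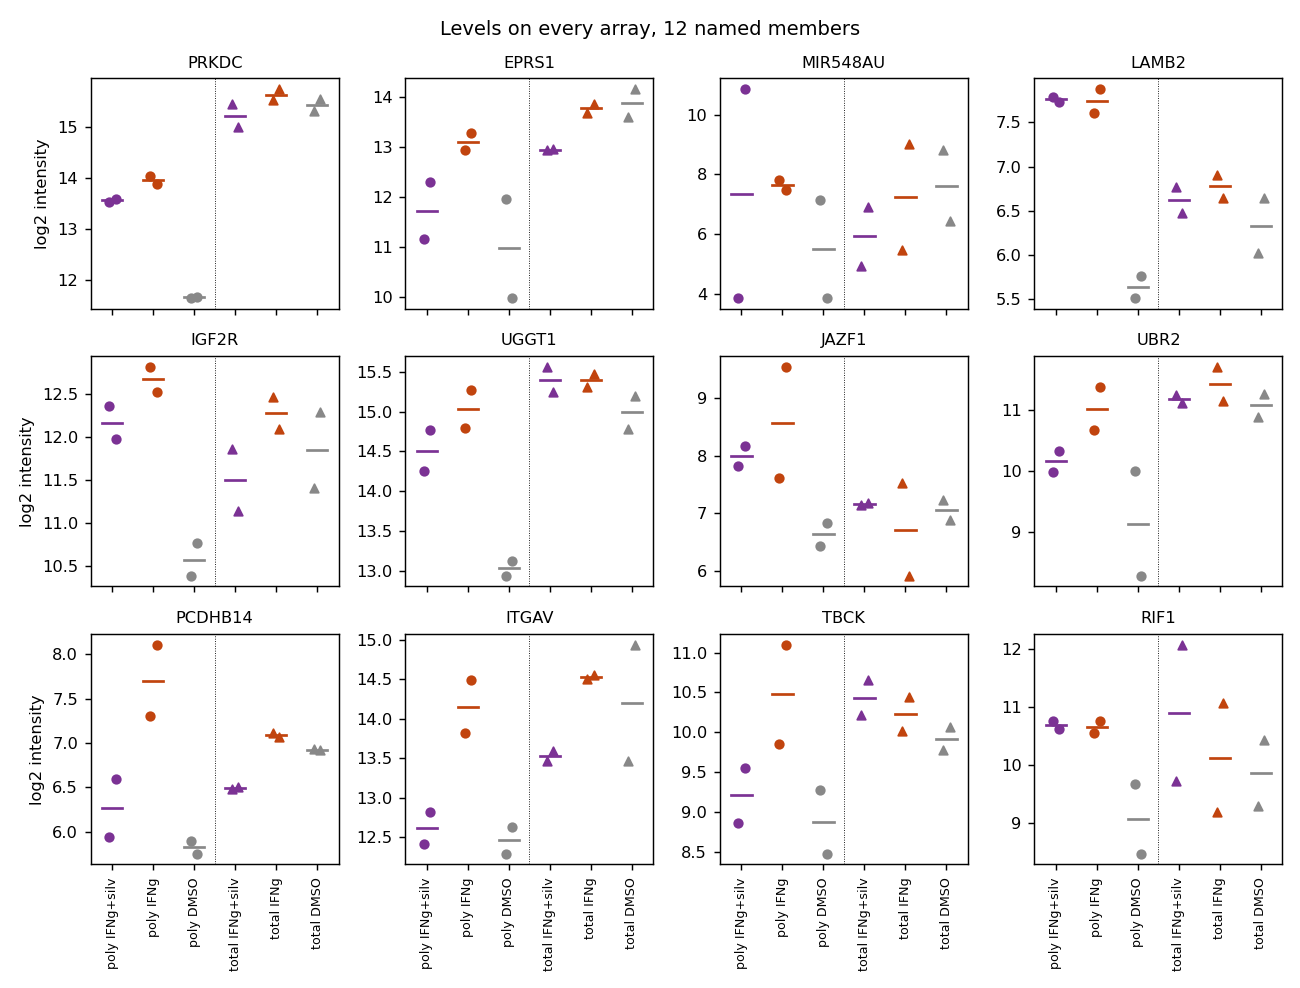
The 12 members with a gene symbol and the largest polysomal IFNg minus DMSO difference are shown with log2 intensity on the vertical axis. Dots (polysomal) and triangles (total) are single arrays, short lines are means of 2 arrays, and the columns are IFNg with silvestrol, IFNg and DMSO in each fraction. PRKDC and LAMB2 show tight pairs, whereas MIR548AU ranges from 3.86 to 10.86.

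EPRS1, which charges tRNA with glutamate and proline and which IFNg is known to recruit to an inhibitor of translation in human myeloid cells, had polysomal values of 11.16 and 12.31 with IFNg and silvestrol, 12.94 and 13.28 with IFNg, and 11.97 and 9.98 with DMSO. The IFNg arrays lay within 0.5 log2 units of each other, but the DMSO arrays did not, and the silvestrol group overlapped DMSO. STING1, the adaptor that starts the interferon response to cytosolic DNA, had 12.25 and 12.55 with IFNg and silvestrol, 13.52 and 14.62 with IFNg, and 12.58 and 12.48 with DMSO. Both IFNg arrays were the highest of the 12. STING1 sat near the edge of the rule, with a total RNA difference of 0.495. Its total RNA was 11.82 and 11.68 with IFNg and 11.33 and 11.18 with DMSO, with no overlap. TBCK, a Rab regulator linked to mTOR signalling, had polysomal values of 8.86 and 9.55 with IFNg and silvestrol, 9.85 and 11.10 with IFNg, and 9.27 and 8.47 with DMSO, and its silvestrol and DMSO arrays overlapped. A group of 7 cytoskeletal members, among them APC, CLASP1, PCM1 and CEP350 of microtubules and centrosomes, had differences from 1.05 to 1.26. APC and CEP350 had total RNA replicates more than 3 log2 units apart with IFNg (9.60 and 12.99 for APC, 8.23 and 11.41 for CEP350), so their place inside the total RNA window rests on a mean of unlike arrays.

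Some members have near-identical copies, and probes may not separate them. RANBP2, a nuclear pore protein, was a member together with its copies RGPD3 and the cluster named for both RGPD5 and RGPD8, and AHCTF1 was a member together with its pseudogene AHCTF1P1. Of the 290 bright clusters whose single symbol is a small noncoding RNA, the members were RNU6-812P, MIR9500, MIR1471, MIR4284 and MIR548AU, and the cluster named for both SNORA36B and MIR664A was a member outside that list. The cluster named MIR548AU has chromosome 2 in its identifier while RefSeq places that gene on chromosome 9, so its name is unsettled. Its values of 3.86 and 10.86 on the IFNg and silvestrol polysomal arrays, and a standard error of 1.81, carry no usable difference.

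The beta protocadherins, cell adhesion proteins encoded side by side in a cluster on chromosome 5, gave 5 members: PCDHB5, PCDHB6, PCDHB9, PCDHB14 and PCDHB16. The family was singled out after the values were seen, and its genes are close paralogs whose probes may share signal. The promoter windows of the 4 members that RefSeq's table holds (GRCh38.p14, plus strand, 250 bases before to 50 after the gene start) are shown because the genes are neighbours of 1 family in the set, with the 9-base motif GGTGGCGCT in capitals. They lie at chr5:141134956-141135255 for PCDHB5, chr5:141182137-141182436 for PCDHB16, chr5:141186911-141187210 for PCDHB9 and chr5:141223093-141223392 for PCDHB14.
PCDHB5: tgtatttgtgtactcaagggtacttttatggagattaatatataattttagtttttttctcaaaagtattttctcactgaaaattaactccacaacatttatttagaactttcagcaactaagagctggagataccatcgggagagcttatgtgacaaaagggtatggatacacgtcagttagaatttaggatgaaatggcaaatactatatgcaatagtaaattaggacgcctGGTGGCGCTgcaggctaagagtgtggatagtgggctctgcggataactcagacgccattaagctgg
PCDHB16: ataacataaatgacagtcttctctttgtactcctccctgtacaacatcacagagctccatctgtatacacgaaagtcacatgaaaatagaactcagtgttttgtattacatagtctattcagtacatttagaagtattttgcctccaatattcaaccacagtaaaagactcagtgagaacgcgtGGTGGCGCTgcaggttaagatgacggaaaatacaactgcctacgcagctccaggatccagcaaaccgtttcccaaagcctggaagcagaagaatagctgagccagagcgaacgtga
PCDHB9: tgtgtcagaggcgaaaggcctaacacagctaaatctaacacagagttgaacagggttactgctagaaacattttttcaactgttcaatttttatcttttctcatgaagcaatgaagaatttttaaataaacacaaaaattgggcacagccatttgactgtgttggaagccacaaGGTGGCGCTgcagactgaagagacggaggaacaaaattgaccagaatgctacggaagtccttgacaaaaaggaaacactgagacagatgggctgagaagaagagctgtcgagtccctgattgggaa
PCDHB14: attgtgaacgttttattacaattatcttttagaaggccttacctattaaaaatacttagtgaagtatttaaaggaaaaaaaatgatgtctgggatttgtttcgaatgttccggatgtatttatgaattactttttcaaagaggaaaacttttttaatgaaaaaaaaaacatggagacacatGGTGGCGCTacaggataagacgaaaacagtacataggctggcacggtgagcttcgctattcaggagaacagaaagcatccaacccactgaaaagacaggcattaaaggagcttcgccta

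The motif, searched on both strands, stood in 13 of the 14 beta protocadherin promoters of the table, all 4 member promoters and 9 of the 10 others, against 176 of 35116 promoters (0.501%). Members and non-members of the family thus shared it, and a match of letters describes the sequence and is no binding site by itself.

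PCDHB14 had polysomal values of 5.94 and 6.59 with IFNg and silvestrol, 7.30 and 8.11 with IFNg, and 5.90 and 5.75 with DMSO. PCDHB9 had 10.29 and 10.29 with IFNg and silvestrol, 11.75 and 12.33 with IFNg, and 10.59 and 10.93 with DMSO. PCDHB6 had 14.57 and 14.69 with IFNg and silvestrol, 15.19 and 16.04 with IFNg, and 14.60 and 14.07 with DMSO. In all 3 genes both IFNg arrays lay above the silvestrol and the DMSO arrays. The same was measured for PCDHB5, at 9.05 and 9.22 with IFNg and silvestrol, 10.87 and 11.01 with IFNg and 10.04 and 9.84 with DMSO. PCDHB16 had 11.90 and 12.09 with IFNg and silvestrol, 13.47 and 13.89 with IFNg, and 12.81 and 12.39 with DMSO. In PCDHB16 the IFNg arrays again lay above both other polysomal groups, and in PCDHB5, PCDHB9 and PCDHB16 both silvestrol arrays were also below both DMSO arrays.

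The table holds 19 beta protocadherin clusters, of which 17 were bright. The 5 members were chosen for their polysomal difference, so the other 12 are given apart. Among these 12 the polysomal IFNg minus DMSO difference was above 0 in 10, with a median of 0.56, against 30.3% above 0 and a median of -0.34 over bright clusters, and in total RNA in 7, with a median of 0.17. Over all 17 it was above 0 in 15, with a median of 0.84. PCDHB2, at a polysomal difference of 0.9943, fell just short of the rule, and PCDHB15 had the family's largest, 1.97, but did not meet the total RNA window. With silvestrol added to IFNg, 10 of the 12 were below 0 in polysomal RNA, with a median of -1.18, against 38.8% below 0 and a median of 0.19 over bright clusters. In total RNA 10 of the 12 were below 0, with a median of -0.65, against 47.3% and 0.02. Over all 17 the count was 15 in each fraction, with medians of -1.37 in polysomal and -0.74 in total RNA. In polysomal RNA limma called 7 of the 17 lower (PCDHB2, PCDHB3, PCDHB5, PCDHB7, PCDHB9, PCDHB14 and PCDHB16), beside 1.46% of bright clusters, and among the 12 non-members 3. Both polysomal differences use the same IFNg arrays, which were chosen high in the 5 members. The fall with silvestrol is therefore not independent of the rise with IFNg, in members or in the other 12.

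**Figure D4:**
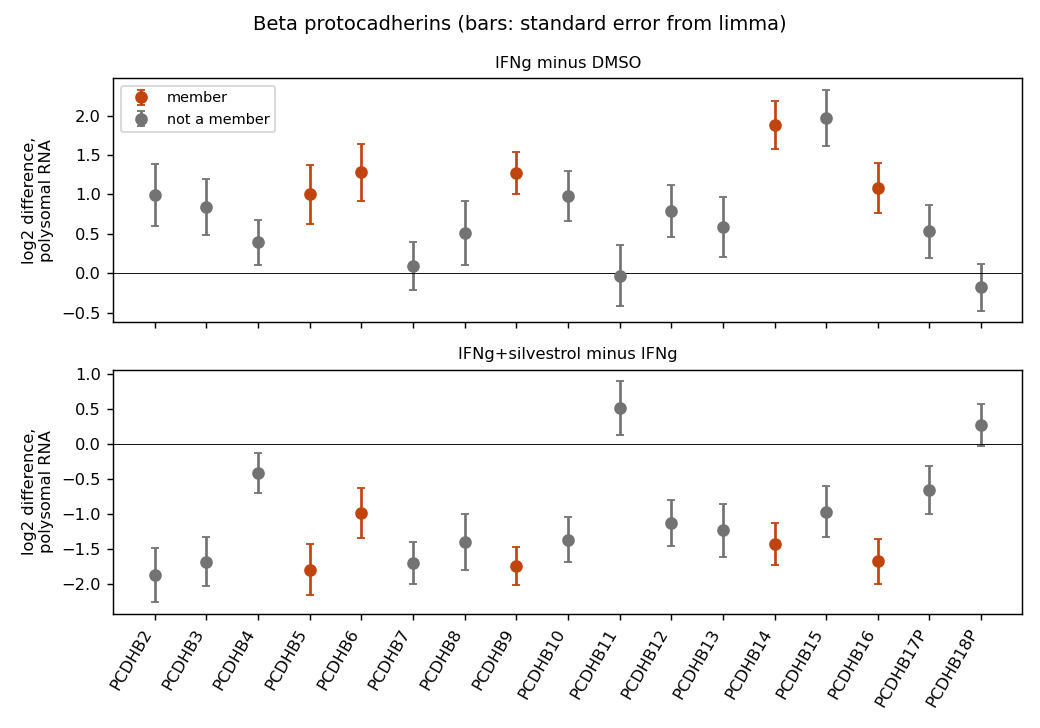
The 17 bright beta protocadherin clusters are shown by their log2 difference in polysomal RNA, IFNg minus DMSO above and IFNg with silvestrol minus IFNg below. Both panels use the same polysomal IFNg arrays, so they are not independent. Points are differences of means of 2 arrays, bars are standard errors from limma, and the 5 members are coloured; 15 of 17 lie above 0 in the upper panel and 15 of 17 below 0 in the lower.

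Set against total RNA of the same cells, the members were poor on polysomes in DMSO cells. Polysomal minus total log2 intensity had a median of 0.47 with IFNg and -0.65 with DMSO, against -0.32 and -0.03 over bright clusters. With DMSO 132 of 148 members lay below 0, which is 89.2% against 52.0% of bright clusters. These arrays chose the members, so these values restate the rule in another form. Members with a symbol were lower than the others in both treatments, with medians of 0.25 with IFNg and -0.99 with DMSO, against 0.85 and -0.40 for the 65 members without a single symbol. Members without a single symbol were also dimmer, with a median mean log2 intensity of 7.41 against 10.33.

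**Figure D5:**
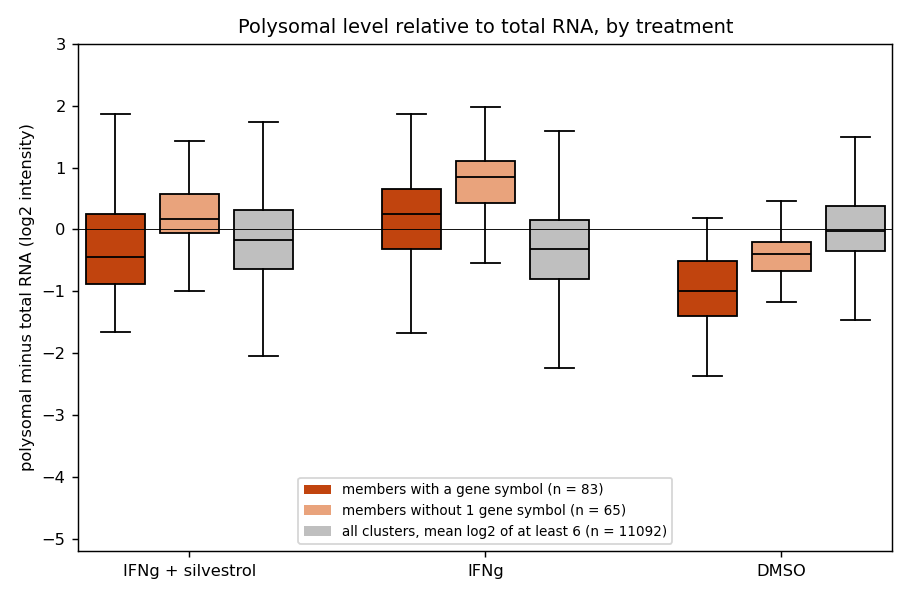
Boxes show polysomal minus total log2 intensity for the 83 members with a gene symbol, the 65 without a single symbol and all 11092 bright clusters, in IFNg with silvestrol, IFNg and DMSO cells. Boxes span the quartiles with the median as a line, whiskers reach 1.5 times that span, and points beyond are not drawn; named members have medians of -0.45, 0.25 and -0.99.

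Apart from the brightness bound, the arrays of IFNg with silvestrol had no part in choosing the members, and polysomal minus total RNA within them was the only contrast free of the IFNg and DMSO arrays. limma with Benjamini-Hochberg adjustment over all clusters called 3 members higher on polysomes and 3 lower, beside 2.41% and 3.25% of bright clusters. The members' median was -0.02, with quartiles of -0.71 and 0.42, against -0.17 over bright clusters. Members with a symbol had a median of -0.45. The coding members had -0.43, against -0.13 for bright coding clusters. Members without a single symbol had 0.17, against -0.22 for bright clusters without a single symbol. Both IFNg and silvestrol polysomal arrays lay above both total arrays in 42 members (28.4%, against 24.0% of bright clusters) and below them in 49 (33.1%, against 39.5%). Pooled over all members, these shares were near the background, but the subsets differed in direction. The difference was above 0 in 66.2% of members without a single symbol, against 34.2% of bright clusters without one. Among coding members it was above 0 in 35.7%, against 44.0% of bright coding clusters.

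HSPG2, the basement membrane proteoglycan perlecan, was the named member called higher in polysomal than in total RNA of cells given IFNg and silvestrol. Its log2 intensity with IFNg and silvestrol was 10.49 and 10.17 in polysomal RNA and 8.78 and 8.14 in total RNA, with no overlap. The difference was 1.87 ± 0.39 (SE), 3.66-fold, with a limma Benjamini-Hochberg adjusted p of 0.0398. PRKDC, USP24 and ANKRD17, an ankyrin repeat protein of the nucleus, were lower. PRKDC had 13.53 and 13.60 in polysomal RNA and 15.45 and 15.00 in total RNA, a difference of -1.66 ± 0.25 (SE; limma adjusted p of 0.0127). USP24 had 9.81 and 10.46 in polysomal RNA and 11.87 and 11.60 in total RNA, a difference of -1.60 ± 0.26 (limma adjusted p of 0.0149). ANKRD17 had 11.31 and 12.16 in polysomal RNA and 13.38 and 13.32 in total RNA, a difference of -1.62 ± 0.35 (limma adjusted p of 0.0465). Polysomal and total arrays did not overlap in any of the 3. All these differences lie within 1 treatment and measure no change with silvestrol. Polysomal minus total RNA was 1.21 with IFNg alone and -0.47 with DMSO for HSPG2. For PRKDC it was -1.67 and -3.77.

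The 2 other members called higher, TC0300013384.hg.1 and TC0500010256.hg.1, have no gene symbol and had differences of 1.62 and 1.44. STING1 at 1.20, RNU6-812P at 1.44 and ATAD2, an ATPase that binds acetylated histones, at -1.47 did not pass. Over 18 alternatives the adjusted p from limma ranged from 0.00736 to 0.122 for PRKDC, from 0.00873 to 0.153 for USP24, from 0.0166 to 0.306 for HSPG2 and from 0.0197 to 0.341 for ANKRD17. The call was kept in 14 of the 18 for PRKDC and for USP24, in 8 for HSPG2 and in 5 for ANKRD17. With the replicate number as a block ANKRD17 had a limma adjusted p of 0.0539. HSPG2 was also not called with the intensity trend and robust variances, or without any 1 of the 4 DMSO arrays or the 4 arrays of IFNg with silvestrol. PRKDC and USP24 lost the call in the fit of only the 4 arrays compared and without either total or the first polysomal array of IFNg with silvestrol, and all 6 calls were lost in each of these 4 fits. Without either polysomal DMSO array 1 member was called higher.

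Against DMSO, which shares the polysomal DMSO arrays with the rule, polysomal RNA of cells given IFNg and silvestrol was higher for 123 of 148 members, with a median of 0.61 against -0.15 over bright clusters. limma called 11 members higher, beside 2.58% of bright clusters, and 0 lower, beside 5.02%; at an unadjusted p below 0.05 the counts were 59 and 2, beside 10.1% and 20.7% of bright clusters. The 11 were LAMB2, PRKDC, HSPG2, RANBP2, UBR4, IGF2R, UGGT1, BIRC6, the RGPD5 and RGPD8 cluster, the SNORA36B and MIR664A cluster and TC0600009771.hg.1. Both IFNg and silvestrol arrays lay above both DMSO arrays in 86 members (58.1%, against 20.7% of bright clusters). The count was 6 and 2 without the first and the second polysomal DMSO array, and 3 and 5 without the first and the second polysomal array of IFNg with silvestrol. Because the DMSO arrays were chosen low, these shares are not independent of the choice.

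RANBP2 had the largest difference, with polysomal values of 12.23 and 11.99 with IFNg and silvestrol, 10.57 and 10.89 with IFNg, and 9.94 and 9.39 with DMSO. Its silvestrol arrays were the highest of the 3 groups, and the difference from DMSO was 2.44 ± 0.49 (SE), 5.43-fold. UBR4 had 14.52 and 13.98 with IFNg and silvestrol, 13.91 and 13.61 with IFNg, and 12.43 and 12.71 with DMSO, a difference from DMSO of 1.68 ± 0.27 (SE). HSPG2 had 10.49 and 10.17 with IFNg and silvestrol, 9.89 and 9.25 with IFNg, and 7.89 and 8.13 with DMSO, a difference from DMSO of 2.32 ± 0.39 (SE). The lowest members with a gene symbol were UBXN4, an endoplasmic reticulum protein of protein degradation, at -0.94 ± 0.32 (SE), PCDHB5 at -0.80, PCDHB16 at -0.60, HLTF at -0.51, PCDHB9 at -0.47 and the pseudogene DPY19L1P2 at -0.44, and TC0800010998.hg.1, which has no symbol, was lower still at -1.38.

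Against IFNg alone, which shares the polysomal IFNg arrays with the rule, polysomal RNA with silvestrol was lower for 133 of 148 members, with a median of -0.64 against 0.19 over bright clusters. limma called 10 members lower, beside 1.46% of bright clusters, and 0 higher, beside 5.43%; at an unadjusted p below 0.05 the counts were 61 lower and 1 higher, beside 8.55% and 22.1% of bright clusters. The count lower was 0 without the second polysomal IFNg array, and 0 and 6 without the first and the second polysomal array of IFNg with silvestrol. The named ones were PCDHB5, PCDHB9, PCDHB14, PCDHB16, STING1 and UBXN4, and 4 clusters had no symbol, the lowest of them at -2.50. UBXN4 had polysomal values of 13.29 and 13.49 with IFNg and silvestrol, 15.41 and 15.50 with IFNg, and 14.04 and 14.62 with DMSO, and its silvestrol arrays were below both other groups. Its difference from IFNg was -2.07 ± 0.32 (SE), and that of STING1 was -1.67 ± 0.33. Both IFNg arrays lay above both silvestrol arrays in 92 members (62.2%, against 19.4% of bright clusters), and since the IFNg arrays were chosen high, these shares are not independent of the choice either.

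In total RNA limma called 0 members in either direction when IFNg with silvestrol was set against IFNg or against DMSO. Of bright clusters 0.225% were called higher and 0.0902% lower against IFNg, and 2.67% higher and 0.983% lower against DMSO. At an unadjusted p below 0.05, 4 members (2.70%) were higher and 10 (6.76%) lower against IFNg, beside 6.11% and 4.72% of bright clusters. Against DMSO 3 members (2.03%) were higher and 5 (3.38%) lower, beside 10.2% and 10.7%. The medians were -0.14 and -0.06 in members and 0.02 and -0.05 over bright clusters. These comparisons share the total RNA arrays of IFNg or DMSO with the rule. The difference of polysomal and total changes was called in 0 members for silvestrol against DMSO (at an unadjusted p below 0.05, 32 higher and 1 lower, beside 3.14% and 7.70% of bright clusters) and in 0 for silvestrol against IFNg (unadjusted, 0 and 16, beside 10.5% and 2.79%). After adjustment 0.0% of bright clusters were called against DMSO, and 0.108% were called higher and 0.0% lower against IFNg, and these contrasts too hold arrays that the rule used.

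When the rule was applied to the replicate 1 arrays alone it chose 165 clusters, of which 43 were members. On the replicate 2 arrays the 165 clusters had a median polysomal IFNg minus DMSO difference of 0.40, against -0.40 over bright clusters. The difference was above 0 in 121 of them (73.3%, against 31.6% of bright clusters) and at least 1 in 38 (23.0%, against 6.32%). Chosen on replicate 2, 308 clusters, of which 74 were members, had a median of 0.32 on replicate 1, against -0.30 over bright clusters. Of the 308, 200 were above 0 (64.9%, against 33.8%) and 59 at least 1 (19.2%, against 5.4%). These shares thus cover mostly clusters outside the set, and both pairs are arrays that the rule used. The size seen on the choosing arrays, a median of 1.18 and 1.27, was thus not kept on the other array pair. Both pairs of arrays met the rule's conditions in 19 clusters, which is 11.5% of those chosen on replicate 1, against 2.78% of bright clusters, and 6.17% of those chosen on replicate 2, against 1.49%. Among them were ARHGEF10, BIRC6, CHRNA6, HSP90B3P, MAN2A1, NBAS, PCDHB9, PCDHB14, PRKDC and USP24.

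No gene that the table holds of the JAK-STAT, antiviral, guanylate binding protein, antigen presentation or chemokine and tryptophan enzyme lists was a member. In that order, the median total RNA differences with IFNg of their bright clusters were 1.09, 2.98, 6.35, 4.13 and 6.35. These lie outside the total RNA window of 0.5, so the absence largely restates the rule. The member STING1 was on none of these lists. With IFNg, limma called 10 of 19 antiviral clusters higher in polysomal RNA and 9 in total RNA, 6 and 6 of 8 guanylate binding protein clusters, 22 and 23 of 24 antigen presentation clusters, 3 and 4 of 5 chemokine and tryptophan enzyme clusters, and 1 and 2 of 6 JAK-STAT clusters, beside 1.78% and 1.54% of bright clusters. Ribosomal proteins and translation factors, histones and cell cycle genes gave no member either, and 15 of 31, 6 of 13 and 1 of 23 clusters were called lower in polysomal RNA, beside 10.5% of bright clusters. These 3 lists hold 30, 13 and 21 bright clusters, so at a member share of 1.33% a count of 0 shows nothing about them. Of the 1778 small noncoding RNA clusters, bright or not, 2 were called higher and 4 lower in polysomal RNA. Over all clusters of the table the shares were 0.478% and 1.93%. By the same test 30 of the 148 members were called higher in polysomal RNA, in the contrast that chose them. In total RNA 0 members were called, beside 1.54% of bright clusters called higher and 0.0992% lower, and 0 members had an unadjusted p below 0.05. The rule held the total RNA difference of members within 0.5 log2 units, so this lack of calls restates the choice.

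The edges of the rule were not gaps in the data. VPS13B, a lipid transfer protein, at 1.002 and PCDHB5 at 1.004 were just inside the polysomal bound, and SLC4A7, a bicarbonate transporter, at 0.9945 was just outside. STING1 at 0.495 was inside the total RNA window, and LIFR, a cytokine receptor, at 0.5106 was outside. RNU6-812P, with a mean log2 intensity of 6.008, was the dimmest member. Leaving out the polysomal IFNg replicate 1 array gave 291 clusters, of which 130 were members, and quantile normalization over all arrays gave 448, of which 141 were members.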

How the data were processed

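Per the labels, total RNA and polysomal RNA of A375 cells were extracted with Trizol and measured on 12 Affymetrix arrays, and samples were grouped by title. The authors deposited 1 linear intensity per transcript cluster and array. How they corrected background and normalized, and on which genome build, is not given in the sources used here, and the values come without a detection call. The log2 of the deposited intensity was used with no offset.

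Members were chosen by the rule stated in the report. The members, gene lists and role groups were chosen with earlier results of these data known. limma was run on all 12 arrays and 65535 clusters with a mean for each group (version 3.58.1, under R 4.3.3), leaving 6 residual degrees of freedom to which eBayes added 6.72. A cluster was called at a Benjamini-Hochberg adjusted p below 0.05 over all clusters. The number of arrays limits the precision, with a median standard error of 0.36 for a member's difference.

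Symbols came from the platform's annotation (1 symbol for 16130 clusters, several for 419, none for 48986), and lengths and promoters from RefSeq GRCh38.p14. Genes named by rule were the 12 members with the largest polysomal IFNg minus DMSO difference, the 6 highest and 6 lowest by IFNg with silvestrol minus DMSO in polysomal RNA, the 4 highest and 4 lowest by polysomal minus total RNA with silvestrol, and members in a list. The 9 lists covered JAK-STAT signalling, antiviral genes, guanylate binding proteins, antigen presentation, chemokines and tryptophan enzymes, ribosomal proteins and translation factors, cell cycle, histones and small noncoding RNA, and 5 marker lists covered melanocytes, fibroblasts, T cells, macrophages and endothelial cells. Other genes were named after their values were seen. The fit was also run on simulated data with known changes in the polysomal group of IFNg with silvestrol. Over 3 contrasts it called 0% to 2% of changes of 1 log2 unit and 31% to 36% of changes of 2. Most changes of these sizes would thus go uncalled. Alternatives were other bounds of the rule, an offset of 16, median centring, quantile normalization, a replicate block, fewer arrays or clusters in the fit, an intensity trend with robust variances, a fold of at least 1.5 and leaving out each array. Figures were drawn with matplotlib 3.10.9.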

Additional observations from a re-analysis of the deposited data

Results flagged for a closer look

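PRKDC stood out because its IFNg minus DMSO difference was 2.10 ± 0.35 log2 units (SE) larger in polysomal than in total RNA. The test of that difference passed in limma, but it is the contrast that chose PRKDC as a member, so it is a description of the choice.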

How the results depend on the processing

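The number of members depended on the bounds and the scaling. It was 245 with a mean log2 of at least 5, 252 with a polysomal difference of at least 0.8, 22 with at least 1.5, 91 with a total RNA difference within 0.3 and 448 after quantile normalization over all arrays, which also moved the median polysomal difference of bright clusters to -0.01, against -0.34 before it. It was 308 with the rule on the replicate 2 arrays alone and ran from 111 to 291 when an array was left out. For silvestrol polysomal minus total RNA, the fit of only the 4 arrays compared called 0 members higher and 0 lower, the intensity trend with robust variances called 0 higher, and the fit of bright clusters alone called 7 higher and 6 lower; the members' median turned to 0.13 after quantile normalization. The counts ran from 0 to 4 higher and 0 to 4 lower when an array was left out. Against DMSO in polysomal RNA, the 4 arrays compared gave 5 members higher and bright clusters alone 20, and 2 to 12 without an array. Against IFNg in polysomal RNA, the 4 arrays compared gave 3 lower, and quantile normalization and bright clusters alone 18 each, and 0 to 11 without an array. With the replicate number as a block, 2 members were called higher and 3 lower for silvestrol polysomal minus total, 12 higher against DMSO and 13 lower against IFNg in polysomal RNA, and 0 in total RNA. The numbers are not said to pair the arrays, and deviations of same-numbered arrays correlated between -0.0702 and 0.21 over all clusters and between -0.163 and 0.515 over bright clusters. Under the block ANKRD17 was no longer called lower and UBXN4 was. Total RNA gave 0 calls under all alternatives run. With 2 arrays a group, a count of 0 does not show that the members did not differ. The cause of these changes was not tested.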
